A study of Mus musculus with 6 samples.

Results

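The genes described here encode the cytosolic translation initiation factors eIF1 to eIF6 and elongation factors eEF1 and eEF2 of mouse macrophages. They were chosen by symbol (Eif1 to Eif6 and Eef1 or Eef2 names, leaving out the Eif2ak kinases), with the transcript of the highest mean over the libraries standing for each symbol. This gave 62 genes of the 23282 symbols in the table, of which 53 had a mean of at least 10 reads and were tested. 4 of the 62, Eif2c1 to Eif2c4, carry an older symbol of the Argonaute genes, which act in RNA silencing, and are described apart from the factors.

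The study sequenced poly(A) RNA from macrophages that thioglycollate had drawn into the peritoneum of C57BL/6 females. Smyd5 siRNA, Phf2 siRNA or control siRNA was given for 48 hours, each followed by KLA (Kdo2-lipid A, the endotoxin part that activates TLR4) at 100 ng per ml for 4 hours or by vehicle. Each of the 6 combinations (siSmyd5, siPhf2 or siCtl with KLA or vehicle) is 1 library. No group therefore has replicates, and how many animals or cultures went into a library is not stated in the labels.

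The libraries held 919325 (KLA) and 921923 (vehicle) reads under siSmyd5, 420142 and 577056 under siPhf2, and 1429519 and 1359286 under siCtl. The ribosomal RNA precursor Rn45s took 71.6% and 66.7% of the siPhf2-labelled reads, against at most 1.2% in the other 4 libraries. Values under siCtl came out as whole reads only with the totals printed in the siPhf2 headers, and the reverse, so either names or totals may have been exchanged. Phf2 had 8 and 29 reads in the siPhf2-labelled libraries, against 120 and 113 under siCtl, and with scaling for library composition its averaged log2 fold was 0.90 (edgeR adjusted p 0.0973). Smyd5 had 20 and 9 reads under siSmyd5, against 29 and 44 under siCtl, with a log2 fold of −0.64 (adjusted p 0.383). The arms are therefore called by their labels. All 7 macrophage markers listed had reads in every library, with 6220 to 7449 summed RPM (reads per 1000000, here outside Rn45s). Fibroblast markers (Col1a1, Col1a2, Col3a1, Dcn; 4 of 4 detected in every library) summed to 1060 to 1090 RPM under siSmyd5, 369 to 525 under siPhf2 and 1349 to 1484 under siCtl. Markers of T cells, B cells, mast cells, neutrophils and mesothelium stayed at or under 40.6 RPM, and both eosinophil markers were at 0.

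Translation starts when eIF2 brings the initiator tRNA to the small ribosomal subunit, which eIF1, eIF1A, eIF3 and eIF5 prepare for scanning. The eIF4 factors bind the cap of the mRNA and unwind its leader, eIF2B reloads eIF2 with GTP, and eIF5B joins the subunits. The eEF1 factors then deliver aminoacyl-tRNA and eEF2 moves the ribosome along. In macrophages endotoxin signalling is known to act on this machinery through phosphorylation of eIF4E, the 4E-BPs and eIF2, which RNA levels do not show.

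Eef1a1 and Eef2 had the highest levels. Levels were compared per length, as RPM per kb of transcript, with libraries scaled by TMM (trimmed mean of M-values, which corrects for library composition). Over the siSmyd5- and siCtl-labelled libraries Eef1a1, the tRNA carrier (NM_010106), averaged 371 ± 64.9 RPM per kb (SD over 4 libraries of different treatment) and Eef2, the translocase (NM_007907), 313 ± 19.9. These 2 ranges overlapped. Eif5a, which relieves stalled ribosomes, followed at 139 ± 10.5, then Eif4g2, an eIF4G relative that lacks the site for eIF4E, at 116 ± 20.3, Eif3k at 115 ± 27.9 and Eif3c at 112 ± 12.2. The last 3 did not differ beyond their spread. The highest members of the other complexes were Eif6, which keeps the ribosomal subunits apart, at 48.7 ± 11.8, Eif1ax at 34.1 ± 9.7, the 4E-BP Eif4ebp1 at 31.7 and the eIF2B subunit Eif2b2 at 21.7. Among genes listed with eIF2 by symbol Eif2a was highest at 27.4, and the highest eIF2 subunit, Eif2s1, stood at 21.3. Eef1a2, known as the form of muscle and neurons, reached 25.5.

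**Figure D1:**
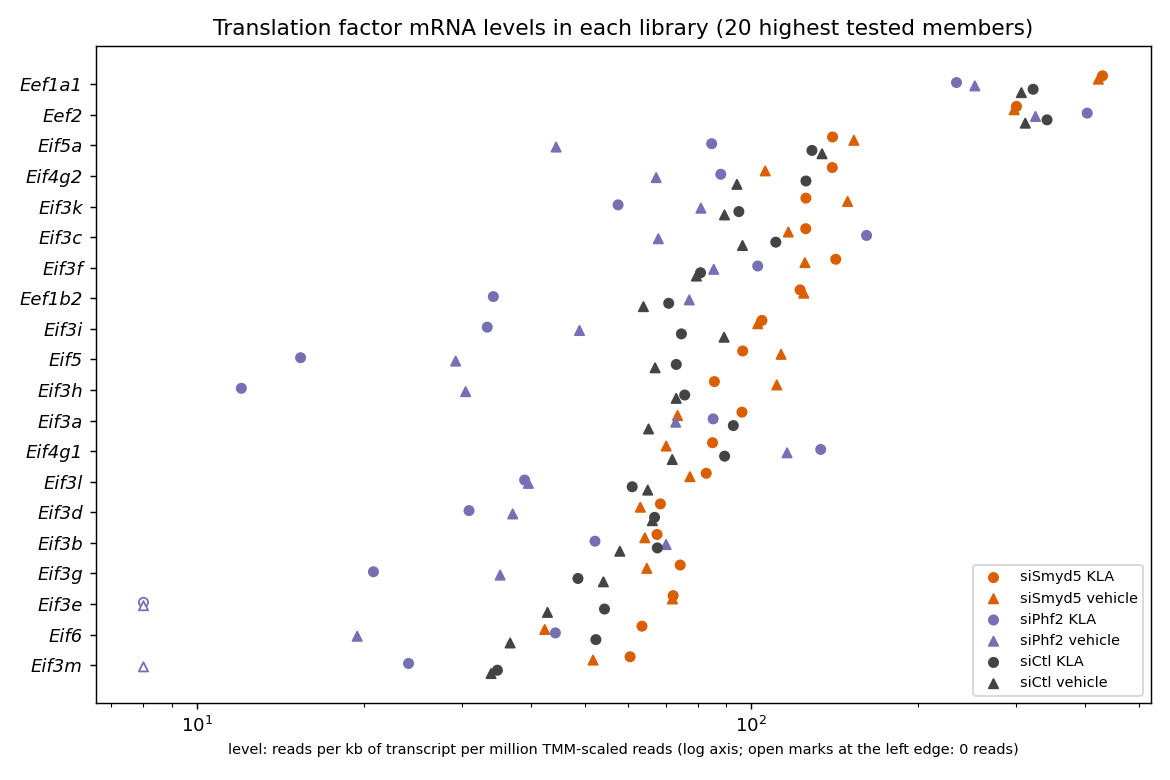
Levels of the 20 tested members with the highest means, in TMM-scaled RPM per kb on a log axis, 1 mark per library (circles KLA, triangles vehicle). Eef1a1 and Eef2 lie above the others in every library, and Eif3e has open marks (0 reads) in both siPhf2-labelled libraries.

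Of the reads outside Rn45s the 62 genes took 1.2% (KLA) and 1.25% (vehicle) in the siSmyd5-labelled libraries. They took 0.704% (95% Wilson interval 0.658% to 0.753%) and 0.776% (0.738% to 0.817%) in the siPhf2-labelled libraries. In the siCtl-labelled libraries the shares were 1.12% (1.1% to 1.14%) and 1.14% (1.12% to 1.15%). Intervals here and below cover counting error only, since each group is 1 library. They take each read as a separate molecule. No molecular identifiers are described, so PCR copies could make them too narrow. The share was thus lowest in the siPhf2-labelled libraries, where 46 (KLA) and 35 (vehicle) of the 62 genes had under 10 reads.

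The 9 genes below the minimum were not tested. Among them were genes that every cell uses: Eif1, the start codon selector, had at most 2 reads in any library, Eif2s3x, the eIF2 gamma subunit, had 1 to 10, and the cap helicase Eif4a1 had 3 to 19. Eif3j and the oocyte cap-binding form Eif4e1b were listed at 0 in all 6. Eif4ebp3 had 0 to 15 reads, the eEF2 kinase Eef2k 0 to 9, Eif5a2 0 to 6 and the Y-linked Eif2s3y 0 or 1. Whether reads with several matches in the genome were dropped is not given in the sources used here. Values of factors with near-identical copies, Eef1a1, Eef1b2, Eif4a1 and Eif5a included, are uncertain for that reason.

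In the averaged effect of KLA over the 3 siRNA arms (edgeR additive fit over all genes, 2 residual degrees of freedom) 2 of 53 tested members rose, Eef1e1 and Eif6, and 1 fell, Eef1g. Over all 7995 genes tested 15.8% passed (11.2% rose and 4.6% fell). Eif2c4 had the lowest averaged log2 fold, −0.88, without passing (adjusted p 0.201). The members' median log2 fold was 0.01, against −0.03 for all genes. The cytosolic complexes eIF1, eIF2, eIF2B, eIF3, eIF4 and eIF5 had 0 members called, of 4, 4, 5, 12, 10 and 3 tested. At an unadjusted p under 0.05 edgeR gave 6 members, and the share of all genes at that p was not counted.

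Eif6 (NM_010579, chr2:155645573-155652661 on mm9) had 94.5, 66.0 and 78.0 scaled RPM in the siSmyd5-, siPhf2- and siCtl-labelled KLA libraries, against 63.1, 29.0 and 54.7 in the vehicle libraries. Every KLA library lay above every vehicle library, and the siPhf2-labelled pair rested on 9 and 7 reads. The averaged log2 fold was 0.59 (standard error 0.19, adjusted p 0.0422). Within arms KLA over vehicle was 1.5-fold (95% interval 1.14 to 1.97) under siSmyd5, 2.28-fold (0.755 to 7.2) under siPhf2 and 1.43-fold (1.13 to 1.81) under siCtl.

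Eef1e1, a scaffold protein of the multi-tRNA synthetase complex (NM_025380, chr13:38737560-38750897), had 33.9, 14.7 and 31.6 scaled RPM with KLA, against 10.7, 8.27 and 19.6 with vehicle, in the same order of arms. It was higher with KLA in each arm, while the groups overlapped, and both siPhf2-labelled values were 2 reads. Its averaged log2 fold was 1.03 (standard error 0.29, adjusted p 0.0185). KLA over vehicle was 3.16-fold (1.76 to 5.97) under siSmyd5 and 1.61-fold (1.1 to 2.38) under siCtl. Eef1g, the eEF1 gamma subunit (NM_026007, chr19:9041531-9052670), had 13.7, 14.7 and 23.9 with KLA, against 29.5, 12.4 and 40.9 with vehicle. It was lower in the siSmyd5- and siCtl-labelled arms and not in the siPhf2-labelled arm, where it had 2 and 3 reads. Its averaged log2 fold was −0.85 (standard error 0.27, adjusted p 0.0351).

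These 3 calls rest on edgeR. The adjusted p of Eef1e1, Eef1g and Eif6 was 0.297, 0.412 and 0.487 with DESeq2 and 0.0513, 0.105 and 0.0971 with limma-voom. A fit of the siSmyd5- and siCtl-labelled libraries alone, with 1 residual degree of freedom, called 7 of 55 members: Eef1e1 and Eif6 again rose and Eef1g fell. In that fit Eif3a, the largest eIF3 scaffold subunit (log2 fold 0.43), Eif4g2 (0.39) and the cap scaffold Eif4g1 (0.28) also rose, and the eIF2B subunit Eif2b4 (−0.73) fell. There 22.9% of all genes passed (14.6% rose and 8.34% fell).

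By size (log2 ratio of at least 1 either way with a counting interval that excludes equality) KLA called 1 member higher and 2 lower under siSmyd5, 3 and 3 under siPhf2, and 0 and 0 under siCtl. Of all genes 12.2% were called under siSmyd5 (8.72% higher, 3.5% lower), 14.9% under siPhf2 (8.26% and 6.65%) and 9.84% under siCtl (7.17% and 2.68%). Under siSmyd5 these were Eef1e1, Eef1g and Eif2b4, the last at 0.412 of vehicle (0.243 to 0.676). Under siPhf2 Eif3c, an eIF3 core subunit, was 2.38-fold higher (1.6 to 3.54; 63 and 47 reads) and the helicase cofactor Eif4h 3.32-fold (1.32 to 9.05; 15 and 8 reads). Eif3m had 4 reads with KLA and 0 with vehicle, or 2.36-fold higher with the 0 set to a floor of 3 reads. That floor, also used below, is a convention and not a confidence limit. Eef1b2, Eif2c2 and Eif2c4 were lower there, Eef1b2 at 0.443 (0.188 to 0.937). None of these had a matching call under another siRNA label, and differences between arms were not tested.

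No cap-binding regulator passed for KLA, of 3 tested. Eif4ebp1, which holds back eIF4E, had 22.4, 22.0 and 30.7 scaled RPM with KLA, against 36.3, 8.27 and 34.6 with vehicle, in the siSmyd5-, siPhf2- and siCtl-labelled arms. It was lower in the deeper arms and rested on 3 and 2 reads in the siPhf2-labelled arm. Its averaged log2 fold was −0.33 (adjusted p 0.485), and that of the cap-binding protein Eif4e was 0.35 (adjusted p 0.524).

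In the averaged siSmyd5 effect 4 of 53 members rose and 0 fell, where 6.37% of all genes passed (2.71% rose and 3.65% fell). The members' median log2 fold was 0.16, or 0.23 without the 4 Argonautes, against 0.00 for all genes. The 4 that rose belong to 4 complexes: Eif2s2, Eef1b2, Eif5b and Eif3f. At an unadjusted p under 0.05 edgeR gave 16 members, and the share of all genes at that p was not counted.

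Eif2s2, the eIF2 beta subunit (NM_026030, chr2:154697146-154718642), had 65.7 (KLA) and 63.1 (vehicle) scaled RPM in the siSmyd5-labelled libraries, against 36.5 and 30.9 in the siCtl-labelled libraries. Both siSmyd5-labelled values lay above both siCtl-labelled values. The averaged log2 fold was 0.94 (standard error 0.22, adjusted p 0.0206). Eef1b2, the exchange factor that recharges eEF1A (NM_018796, chr1:63223405-63227060), had 236 and 239.7 under siSmyd5, against 137 and 123 under siCtl (log2 fold 0.87, standard error 0.23, adjusted p 0.0336).

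Eif5b, the subunit joining GTPase (NM_198303, chr1:38054855-38112424), had 339 (KLA) and 448 (vehicle) scaled RPM under siSmyd5, against 220.2 and 209 under siCtl. Its groups did not overlap, and the averaged log2 fold was 0.85 (standard error 0.23, adjusted p 0.0359). Eif3f, an eIF3 subunit of the MPN fold (NM_025344, chr7:116077929-116085456), had 213 and 187 under siSmyd5, against 121 and 119 under siCtl (log2 fold 0.73, standard error 0.21, adjusted p 0.0424). Under vehicle Eif5b was 2.14-fold (1.9 to 2.41) and Eif2s2 2.04-fold (1.49 to 2.81) higher, and these were the 2 members called higher by size of 53, with 0 lower (all genes 8.01%, as 2.59% higher and 5.42% lower). Under KLA 0 were called higher and 1 lower (all genes 5.58%, as 1.81% and 3.76%): Eif4ebp2, at 0.386 of control (0.143 to 0.901) with 7 and 29 reads.

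The start sites of the 4 genes that rose are shown to compare their first transcribed bases, since many mRNAs of the translation machinery begin with a pyrimidine tract, the 5′ TOP start. Each line runs from 10 bases before to 20 bases from the annotated RefSeq start (GRCm38.p6), and capitals mark the unbroken run of C or T from the first transcribed base. The windows are chr7:108934405-108934434 (plus strand) for Eif3f, chr1:63176821-63176850 (plus) for Eef1b2, chr2:154892887-154892916 (minus) for Eif2s2 and chr1:37998000-37998029 (plus) for Eif5b.
Eif3f: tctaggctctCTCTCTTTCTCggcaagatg
Eef1b2: ctgcagttccgccggaagtagccgaggcct
Eif2s2: aaggttggctTTactgtacgcctgcgcttt
Eif5b: ctgggttcccacctggccggcggctctact
Eif3f alone of these 4 has a TOP start as defined here (C at the first base and a run of at least 5 C or T), with a run of 11. The table held 63 promoters for 48 of the 62 genes, matched by gene ID, and 2 of the 63 had such a start (Eif3f and Eif2s3x), against 2.5% of all 32851 promoters. The hexamer CACGTG, the same on both strands and bound by Myc-family factors, occurred in 14 of the 63 promoters (250 bases before to 50 after the start), of 12 genes, or 22.2%, against 7.15% of all. Annotated starts can lie some bases from the starts used in these cells.

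**Figure D2:**
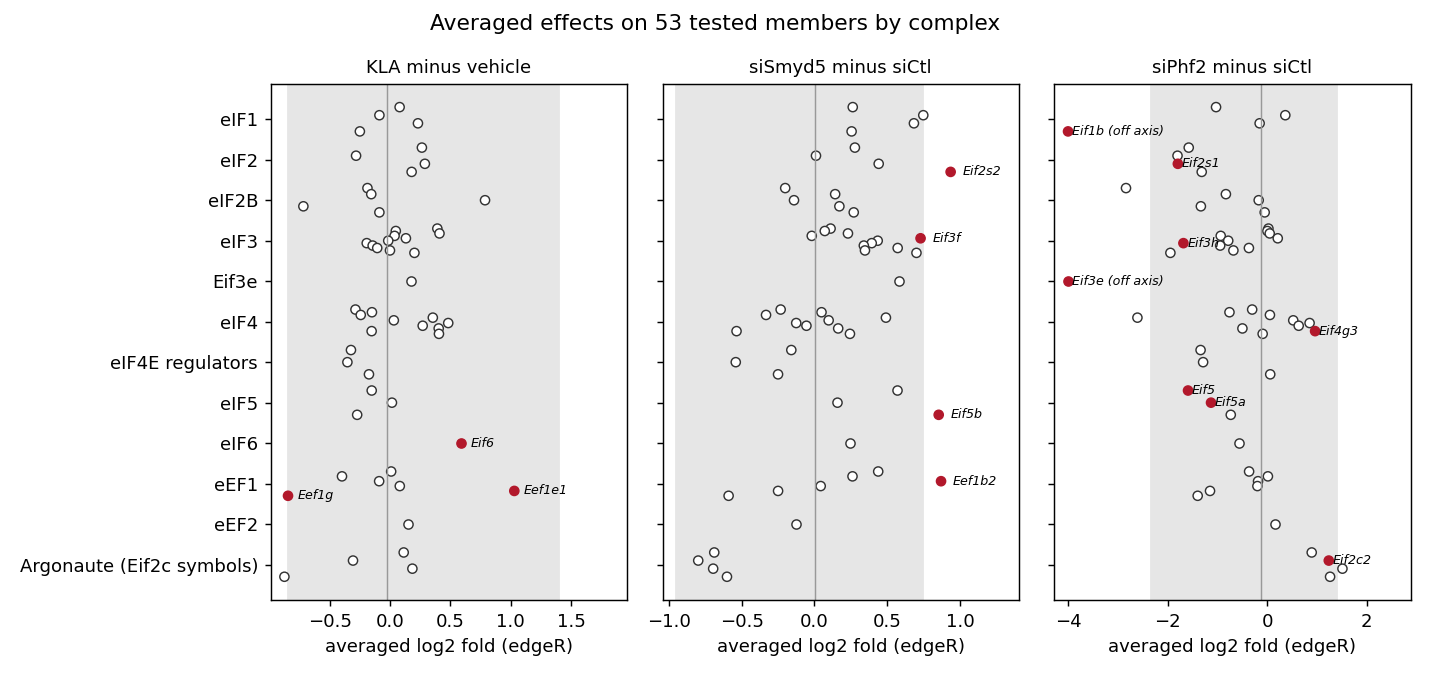
Averaged log2 folds of the 53 tested members by complex, with KLA minus vehicle, siSmyd5 minus siCtl and siPhf2 minus siCtl in 3 panels; red marks passed the edgeR test, the grey band holds the central 90% of all genes and the line is their median. The called members are Eef1e1, Eif6 and Eef1g for KLA, Eif2s2, Eef1b2, Eif5b and Eif3f for siSmyd5, and 8 genes for siPhf2, with Eif3e and Eif1b beyond the axis.

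The siSmyd5 calls depend on the fit. DESeq2, limma-voom and limma on log2 values each called 0 members (4, 13 and 5 at an unadjusted p under 0.05). The shares of all genes at that p were not counted. The siSmyd5- and siCtl-labelled libraries alone called 13 of 55 members higher and 4 lower, where 23.9% of all genes passed (11.6% rose and 12.3% fell). The 4 named above were among the 13. The others were Eef1a1 (log2 fold 0.42), the scanning partner Eif5 (0.56), Eif2s1 (0.42), Eif1ax (0.66), Eif1ad (0.72), and the eIF3 subunits Eif3m (0.68), Eif3e (0.55), Eif3k (0.55) and Eif3h (0.38). The 4 that fell were Eif2c2 (−0.81), Eif2c1 (−0.71), Eif4g3 (−0.56) and the helicase cofactor Eif4b (−0.35). With the siCtl and siPhf2 names exchanged 18 rose and 5 fell, and the share of all genes in that fit is not given here.

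Within eIF3 the averaged siSmyd5 log2 fold was above 0 in 10 of 11 subunits other than Eif3e, against 4012 of all 7995 genes. Their median log2 fold was 0.35, with a range of −0.02 (Eif3d) to 0.73 (Eif3f), and 1 passed. Eif3e had 110.4 and 110.1 scaled RPM under siSmyd5, against 83.01 and 65.5 under siCtl, with a log2 fold of 0.58 (adjusted p 0.0827). The median of the 10 tested eIF4 factors was 0.00. Eif4g3, a longer relative of Eif4g1, had 77.2 and 81.9 under siSmyd5, against 110.1 and 121 under siCtl (log2 fold −0.53, adjusted p 0.117).

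Transcript length ran along with the siSmyd5 differences. Across all 7995 genes the Spearman correlation of averaged log2 fold with length was −0.51, and across the 53 members −0.29; genes share libraries and depth here. The tested members had a median length of 1961 bases, against 2914 for all genes. After subtraction of the length trend the members' median log2 ratio was 0.13 under vehicle and 0.00 under KLA, against 0.20 and 0.12 before. Eif5b, at 7773 bases, lay against the trend: its corrected log2 ratio was 1.58 under vehicle and 1.08 under KLA, against 1.10 and 0.62 before. For Eef1b2 the corrected values were 0.85 and 0.67, for Eif2s2 0.99 and 0.80, and for Eif3f 0.43 and 0.62. The tested eIF3 subunits other than Eif3e had a median length of 1499 bases. After correction Eif3d (−0.18), Eif3i (−0.12) and Eif3g (−0.08) were below 0 under vehicle, and the other tested eIF3 subunits above 0. With KLA Eif3h (−0.09), Eif3d (−0.08) and Eif3k (−0.06) were below 0, and the others above 0. The fibroblast markers given above also differed between these libraries, and their part in the results was not tested.

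**Figure D3:**
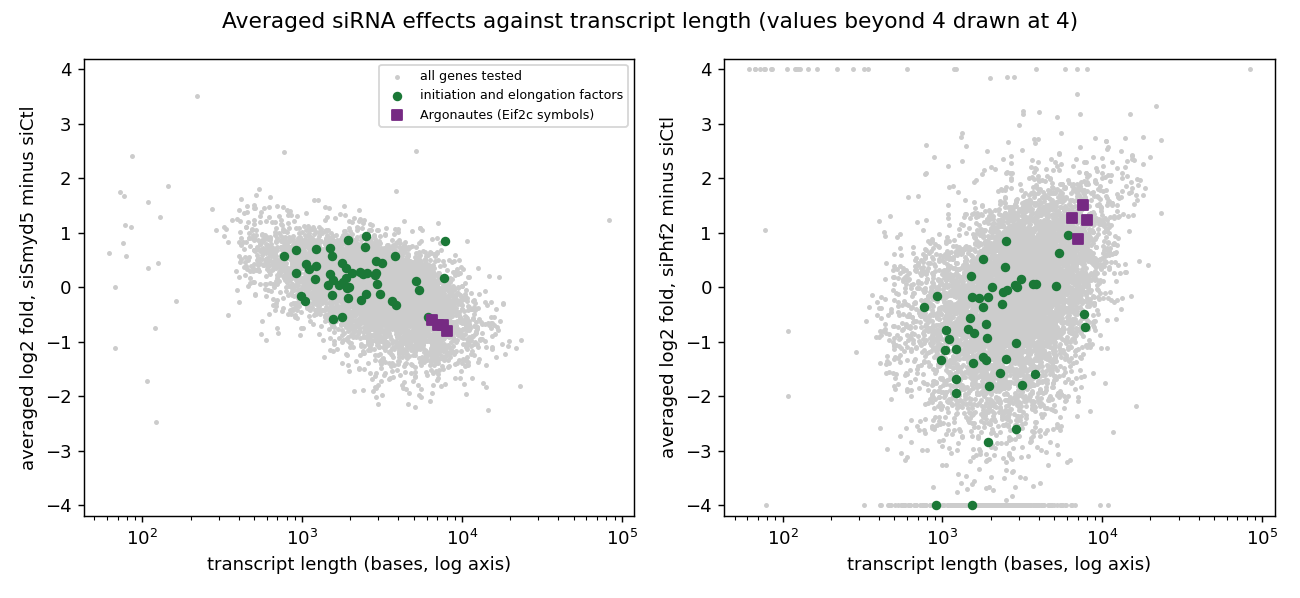
Averaged log2 fold against transcript length in bases (log axis) for siSmyd5 minus siCtl and siPhf2 minus siCtl, with all tested genes in grey, factors in green and the 4 Argonautes as squares. Longer transcripts lie lower for siSmyd5 and higher for siPhf2, and the Argonautes sit at the long end on both sides.

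Eif3e had no reads in either siPhf2-labelled library, and the same held for Eif1b. Of the 53 tested members 6 had 0 reads in the siPhf2-labelled KLA library and 3 in the vehicle library. How many of all genes had 0 reads in both was not counted. In the averaged siPhf2 effect 2 of 53 members rose (Eif2c2 and Eif4g3) and 6 fell (Eif3e, Eif1b, Eif2s1, Eif3h, Eif5 and Eif5a), where 12.6% of all genes passed (8.09% rose and 4.48% fell). The members' median log2 fold was −0.50 (−0.49 at the bound, where a 0 counts as 3 reads), or −0.68 without the Argonautes (−0.57 at the bound), against −0.13 for all genes. At an unadjusted p under 0.05 edgeR gave 22 members, and the share of all genes at that p was not counted. Scaled to the total, most of which is Rn45s here, 50 members fell and 0 rose, and Eif2c2 and Eif4g3 turned to −0.93 and −1.20. That scaling put the median log2 ratio of all genes at −1.95 (vehicle) and −2.24 (KLA). Directions follow the labels and turn round if the names were exchanged.

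Eif3e (NM_008388, chr15:43081586-43114282), the eIF3 subunit also known as Int6, had 0 reads in both siPhf2-labelled libraries, against 184 (KLA) and 157 (vehicle) reads under siCtl and 153 and 164 under siSmyd5. With each 0 set to the floor of 3 reads, Eif3e was 3.78-fold lower than control under KLA and 5.28-fold lower under vehicle. The upper 95% limits of the ratio were 0.329 and 0.236, which allow smaller differences than the floor does. It passed the edgeR test (adjusted p 0.000212), DESeq2 (0.00133) and limma-voom (0.00037), and its adjusted p was at most 0.00885 in 15 alternatives, in 1 of which, the exchange of names, it turned round.

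The other 11 tested eIF3 subunits had 2 to 63 reads (KLA) and 0 to 91 reads (vehicle) in the siPhf2-labelled libraries. Eif3m, like Eif3e a subunit with a PCI domain, was the 1 other subunit with 0 reads in either. It had 4 reads with KLA and 0 with vehicle, against 94 and 99 under siCtl. With the 0 set to the floor it was 3.33-fold lower under vehicle. Eif3h, an MPN-fold subunit (NM_080635, chr15:51618109-51697007), had 2 and 9 reads, against 205 and 214, and fell by 1.68 on the log2 scale (standard error 0.43, adjusted p 0.0133; DESeq2 0.0519, limma-voom 0.042). Eif3d, which can bind the cap itself, stood at 0.462 of control under KLA (0.198 to 0.924; 8 and 281 reads), with an averaged log2 fold of −0.93 (adjusted p 0.0611). The large scaffold subunits did not pass: Eif3a had 440 and 376 scaled RPM under siPhf2, against 478 and 336 under siCtl, and Eif3b 154 and 207, against 199 and 171. Without Eif3e the eIF3 median was −0.68, with 0 rising and 1 falling of 11.

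**Figure D4:**
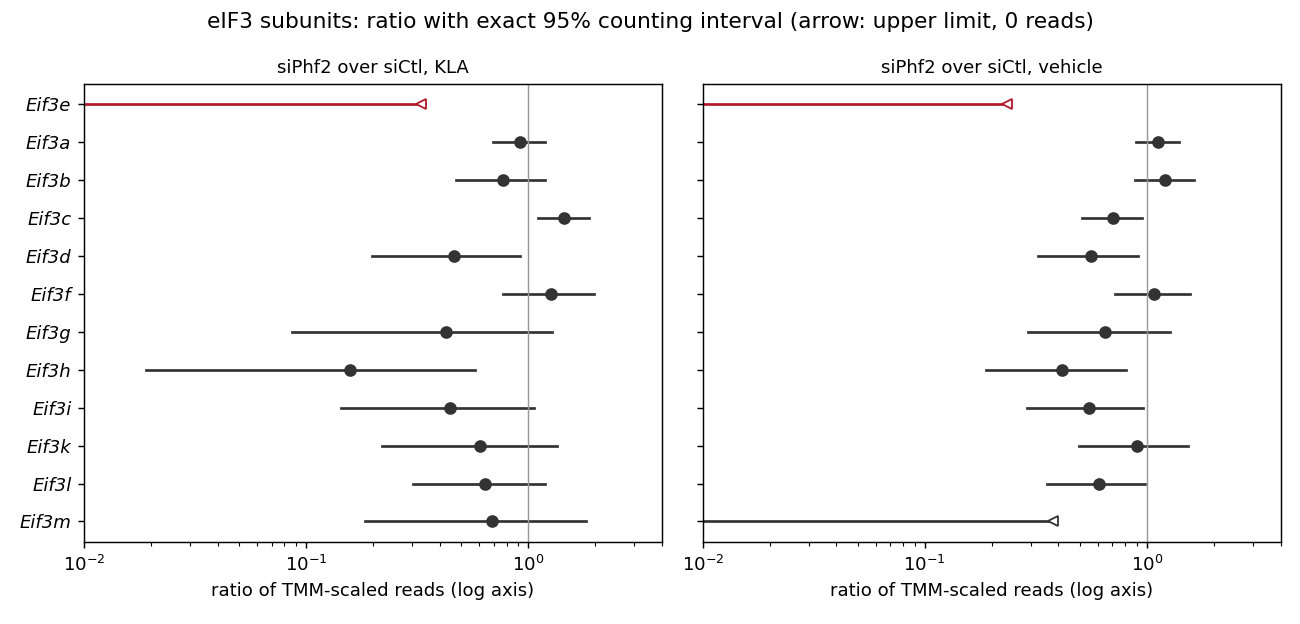
Ratio of siPhf2- over siCtl-labelled TMM-scaled reads for each tested eIF3 subunit under KLA and vehicle, on a log axis with exact 95% counting intervals; arrows are upper limits where the siPhf2-labelled library had 0 reads. Eif3e is the subunit with an arrow in both panels, with limits of 0.329 and 0.236, while Eif3a and Eif3b include 1 in both.

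Eif5, the GTPase activator of eIF2 (NM_178041, chr12:112776312-112784964), had 58.6 (KLA) and 112 (vehicle) scaled RPM under siPhf2, against 279 and 256 under siCtl. Both siPhf2-labelled values lay below both siCtl-labelled values, from 8 and 27 reads. Its log2 fold was −1.59 (standard error 0.32, adjusted p 0.00255), and it passed with DESeq2 (0.0104) and limma-voom (0.0162). Eif5a had 103 and 53.8, against 156 and 162 (log2 fold −1.13, standard error 0.33, adjusted p 0.0320), and did not pass with DESeq2 (0.171) or limma-voom (0.065). Eif2s1, the eIF2 alpha subunit that stress kinases phosphorylate, had 2 and 4 reads, against 140 and 121 (log2 fold −1.79, standard error 0.51, adjusted p 0.0269; DESeq2 0.098, limma-voom 0.0479). Eif2s1 was the 1 of 4 tested genes listed with eIF2 that passed. The others, on 1 to 6 reads each, had log2 folds of −1.58 (Eif2a, adjusted p 0.0541), −1.31 (Eif2s2, 0.165) and −1.80 (Eif2d, 0.207).

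Eif1b, a relative of Eif1, had 0 reads in both siPhf2-labelled libraries, against 47 and 59 under siCtl. Under vehicle it was 1.98-fold lower with the 0 set to the floor, and the upper 95% limit of its ratio was 0.64. Under KLA it was not called by size, since its counting interval included equality. Eif1b passed the edgeR test (adjusted p 0.0186) and limma-voom (0.00682), while DESeq2 gave it no adjusted p. Eif4g3 rose: it had 198 and 248 scaled RPM under siPhf2, against 110.1 and 121 under siCtl (log2 fold 0.96, standard error 0.24, adjusted p 0.0132). The cap scaffold Eif4g1 stood at 718 and 625, against 482 and 388, without passing (log2 fold 0.63, adjusted p 0.0736). Neither main elongation factor passed, with Eef2 at 1246 and 1005, against 1054 and 963 (log2 fold 0.15), and Eef1a1 at 418 and 451, against 574 and 547 (−0.36).

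The start sites of 4 of these genes with an entry in the table are given in the same form to set beside those of the siSmyd5 group. The windows are chr9:120492596-120492625 (plus) for Eif1b, chr12:78862062-78862091 (plus) for Eif2s1, chr12:111538091-111538120 (plus) for Eif5 and chr4:137993445-137993474 (plus) for Eif4g3.
Eif1b: gcgcggggctaaatacgcggcgccggccat
Eif2s1: ggttgggcgaagcgcacgctgaggagcttc
Eif5: cgacgtgcatgcgagccaatgacaagagaa
Eif4g3: tccgagcggcCgtcctgccggactgctgga
None of these 4 has a TOP start, and of the 4 the promoter of Eif1b holds CACGTG. Eif5a, which also fell and is not shown, has promoters with CACGTG as well and no TOP start.

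By size 5 members were higher and 10 lower in the siPhf2-labelled vehicle library (all genes 19.4%, as 10.7% and 8.72%), and 0 higher and 8 lower under KLA (14.9%, as 7.72% and 7.22%). Members lower under both agents were Eif2s1, Eif3e, Eif3h and Eif5, and the share of all genes lower under both was not counted. The 2 contrasts have no library in common, but both siPhf2-labelled libraries had low depth and a high Rn45s share. They are therefore not independent checks of each other. Under vehicle Eif3m, Eif5a, Eif1a, Eif1b, Eef1g and Eif4ebp1 were lower as well, the last at 0.239 (0.028 to 0.89) with 2 and 83 reads. Under KLA Eif2a, Eif5b, Eif3d and Eef1b2 were lower, Eif5b at 0.399 (0.205 to 0.704) and Eif2a at 0.12 (0.003 to 0.682) with 1 and 135 reads.

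Length ran the other way in this comparison. The Spearman correlation of averaged log2 fold with length was 0.36 across all genes and 0.49 across the 53 members. After subtraction of the length trend the members' median log2 ratio was −0.01 under vehicle and −0.11 under KLA, against −0.48 and −0.59 before. Eif3e stayed at −4.11 and −3.81 on this corrected scale, against −4.70 and −4.57 before. Under vehicle the calls by size of Eif3h (−0.56, against −1.21 before), Eif5a (−0.90, against −1.55) and Eif4g3 (0.68, against 1.03) were lost. Eef1g (−0.95) and Eif2c1 (0.53) lost theirs as well, and Eif4g2 was newly called lower (−1.11). Under KLA Eif5a turned to 0.23, against −0.58 before, while Eif3h remained called at −1.58. The KLA calls of Eif3d (−0.41) and Eef1b2 (−0.36) were lost. With the correction 3 members were called higher and 8 lower under vehicle, and 0 and 6 under KLA. These calls join the corrected log2 ratio with the uncorrected counting interval. The shares of all genes called after correction were not counted. The Rn45s share and the depth of these libraries also set them apart, and their part in the results was not tested.

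The 4 Argonautes were 6503 to 8012 bases long. Eif2c2, the Argonaute with slicing activity (NM_153178, chr15:72932055-73015377), had 88.8 (KLA) and 86.6 (vehicle) scaled RPM under siSmyd5, 169 and 538 under siPhf2, and 159 and 144 under siCtl. The siPhf2-labelled vehicle library stood above the other 5. The averaged siPhf2 log2 fold of Eif2c2 was 1.24 (standard error 0.32, adjusted p 0.0146), but DESeq2 gave 0.104 the sign turned with scaling to the total, and under KLA alone the ratio was 1.06-fold (0.662 to 1.61). Eif2c3 had the highest averaged siPhf2 log2 fold of the members, 1.51, without passing (adjusted p 0.0791). All 4 were called higher by size in the siPhf2-labelled vehicle library, from 2.15-fold (Eif2c1, 1.14 to 3.8) to 4.51-fold (Eif2c3, 2.27 to 8.53). Length correction left Eif2c2 at a log2 ratio of 1.21 there, against 1.88 before, and Eif2c1 at 0.53, against 1.04. Under siSmyd5 the averaged log2 folds of the 4 were −0.80 (Eif2c2), −0.70 (Eif2c3), −0.69 (Eif2c1) and −0.60 (Eif2c4), none past the test.

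Calls on 40 other translation genes listed are from edgeR alone, and results of the alternative fits are not given for them. Of the 40, 38 were tested, and 5 rose and 1 fell in the averaged KLA effect, where 11.2% of all genes rose and 4.6% fell. The 5 were the double-stranded RNA kinase of eIF2, Eif2ak2 (log2 fold 1.52, adjusted p 0.00055), both regulatory subunits of the eIF2 phosphatase, Ppp1r15a (0.93) and Ppp1r15b (0.95), the reinitiation factor Denr (0.99) and the release factor Gspt1 (0.59). The eIF4E kinase Mknk2 fell by 0.69. For siSmyd5 1 of 38 rose, the mTORC1 activator Rheb (log2 fold 0.90, adjusted p 0.0141), and 0 fell (all genes 2.71% and 3.65%). For siPhf2 3 rose and 4 fell (all genes 8.09% and 4.48%). Those that rose were Mtor (1.06), Rptor (1.06) and Tsc1 (1.14), 3 of 7 tested genes of mTORC1 and its inputs. Tsc1 was 2.9-fold higher under vehicle (1.94 to 4.24), while its KLA ratio was 0.923 (0.292 to 2.24), and Rheb of the same group had a log2 fold of −0.89 without passing (adjusted p 0.184). The recycling ATPase Abce1 (−1.63), the release factor Etf1 (−1.15) and the poly(A)-binding Pabpc1 (−0.92) fell. The reinitiation factor Mcts1 also passed (adjusted p 0.0150), with 0 (KLA) and 1 (vehicle) reads under siPhf2, against 69 and 89 under siCtl. Under KLA it was at least 1.42-fold lower, and under vehicle it stood at 0.111 of control (0.00279 to 0.637). The list's median log2 folds were 0.04 for KLA, −0.06 for siSmyd5 and −0.43 for siPhf2. Mtor, Rptor and Tsc1, which rose for siPhf2, had siSmyd5 log2 folds of −0.68, −0.73 and −0.70, none past the test. No length-corrected values are given for the listed genes, and the part of transcript length in their results was not tested.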

How the data were processed

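Poly(A) RNA libraries were made with fragmentation, added poly(A) tails, 15 PCR cycles and Genome Analyzer 2 sequencing, per the labels' protocols. The deposited signal is reads per RefSeq transcript scaled by the authors to 10000000 tags, per the file headers. HOMER and mm9 are named without role, per the submitters' processing notes. No source used here names an aligner or a strand setting.

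Whole reads were recovered: 100% of values above 0 were whole within 0.02 with 1 header total each, for siSmyd5 its own, for siCtl that of siPhf2 and for siPhf2 that of siCtl. Recovered reads were used because the design named the count test for them. Of 29619 transcripts, 2 without a symbol were left out; ties in mean went to the transcript listed first. edgeR 4.0.16 (R 4.3.3; quasi-likelihood, TMM, additive siRNA and agent, 2-sided, Benjamini-Hochberg threshold 0.05) was fitted to 7995 genes and called 1260 for KLA, 509 for siSmyd5 and 1005 for siPhf2; standard errors are the log2 fold over the square root of F. With 1 library per group, p-values reflect only how far these libraries depart from additivity. Single-library ratios carry exact conditional Poisson 95% intervals; log2 ratios add 2 reads, scaled to library size. The length trend was a lowess on log10 length (statsmodels 0.14.6). DESeq2 1.42.0 and limma 3.58.1 were alternatives (limma on log2 of scaled CPM plus 15.4). The edgeR fit was also run on counts simulated from gene means and dispersions of these data with planted effects. That simulation held no length trend, so it cannot show how reliable calls from these single libraries are. Named were members past a test or size bound, the highest of each complex, Eif3e, Eif4ebp1, and listed genes past a test. Members and lists were chosen with earlier results of these data known.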

Additional observations from a re-analysis of the deposited data

How the results depend on the processing

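The count of members called was 3 for KLA, 4 for siSmyd5 and 8 for siPhf2. For KLA it was 1 with scaling to the total, 7 without both siPhf2 libraries, and 0 with a mean of at least 50 reads, DESeq2, limma-voom, limma on log2 values or sums over transcripts. For siSmyd5 it was 23 with the siCtl and siPhf2 names exchanged, 17 without both siPhf2 libraries, and 0 with scaling to the total and with those other 5 settings. For siPhf2 it was 50 with scaling to the total, 14 with at least 1 read in all, 3 with DESeq2, 5 with limma on log2 values and 4 with sums over transcripts. Leaving out 1 library gave 0 to 7 for KLA, 0 to 20 for siSmyd5 and 1 to 15 for siPhf2. The counts for KLA and siSmyd5 were 0 without any single siCtl or siSmyd5 library, and 7 and 19 to 20 without either siPhf2 library. Such fits have 1 residual degree of freedom, and a lone library is assumed to vary like the others. Shares of all genes are given above for the main fit and the fit without both siPhf2 libraries, and not for other settings.

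The members' median log2 ratio was 0.74 (vehicle) and 0.71 (KLA) for siSmyd5 with names exchanged, and −2.37 and −2.68 for siPhf2 with scaling to the total. With that scaling Eif2c2 and Eif4g3 turned to averaged log2 folds of −0.93 and −1.20. Under vehicle Eif2c1, Eif2c2, Eif2c4 and Eif4g3 turned to −0.91, −0.17, −0.23 and −1.02.

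With names exchanged the averaged siPhf2 log2 folds were 7.95 (Eif1b), −1.24 (Eif2c2), 1.79 (Eif2s1), 9.58 (Eif3e), 1.68 (Eif3h), −0.96 (Eif4g3), 1.59 (Eif5) and 1.13 (Eif5a). For siPhf2 under vehicle they were 1.53 (Eef1g), 1.71 (Eif1a), 3.37 (Eif1b), −1.04 (Eif2c1), −1.88 (Eif2c2), −1.98 (Eif2c3), −1.63 (Eif2c4), 1.47 (Eif2s1), 4.70 (Eif3e), 1.21 (Eif3h), 4.06 (Eif3m), 1.77 (Eif4ebp1), −1.03 (Eif4g3), 1.18 (Eif5) and 1.55 (Eif5a). Under KLA they were 1.01 (Eef1b2), 2.56 (Eif2a), 1.87 (Eif2s1), 1.07 (Eif3d), 4.57 (Eif3e), 2.39 (Eif3h), 2.18 (Eif5) and 1.29 (Eif5b). KLA in siPhf2 became 0.15 for Eef1b2 and 0.14 for Eif2c2, and siSmyd5 under KLA 1.07 for Eif4ebp2. These turns follow from the exchange itself; the cause of the other changes was not tested. Depth limits the siPhf2-labelled values, with a median of 3 (KLA) and 8 (vehicle) reads per member. The additive fit already compares KLA with vehicle within each siRNA label. Beyond it, no paired analysis was possible because each group has 1 library and no replicate number repeats.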
